A study of Mus musculus with 10 samples.

Results

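Claudin, occludin, ZO-1 and cadherin genes of epithelial cell junctions, 10 in all, were followed across 10 mouse liver libraries. They are the claudin genes Cldn1, Cldn2, Cldn3, Cldn6, Cldn12 and Cldn14, the occludin gene Ocln, the scaffold gene Tjp1, and the classical cadherin genes Cdh1 and Cdh2. They were taken by symbol from the 16697 genes of an RNA-seq table, where all 10 were listed, and all 10 passed the filter on low values (1 FPKM or more in 3 or more libraries, which 14017 genes met).

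Normal liver (NL) gave 4 libraries, tumours from c-MYC injected with the empty pT3 vector (c-MYC) gave 3, and tumours from c-MYC injected with FOXO1AAA (c-MYC/FOXO1AAA) gave 3. FOXO1AAA is a form of the transcription factor FOXO1 that cannot be switched off by AKT. Plasmids were delivered to hepatocytes by injecting a large volume into the tail vein, with Sleeping Beauty transposase for integration and the EF1α promoter driving the transgenes, and NL livers carried none of them. The hosts were labelled wild type throughout. Their strain is C57BL/6 in the characteristics, FVB in the extraction text and FVB/N in the methods of the study. Ages of the sequenced animals are not given by group, both sexes were used without being recorded, and the descriptions differ on whether MCL1 was injected as well. The methods of the study count as many injected mice as tumour libraries and as many normal livers as NL libraries, but the labels tie no library to an animal, and p-values measure the spread between these samples.

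Tight junctions seal the space between neighbouring epithelial cells. Claudins and occludin span the membrane and form the sealing strands, with claudins setting which ions and solutes may pass, and Tjp1 (ZO-1) ties the strands to actin. Below them, the adherens junction joins cells through cadherins, whose tails bind catenins. In liver the tight junction closes the bile canaliculus off from the blood side of the hepatocyte. Hepatocytes carry both E-cadherin (Cdh1), concentrated near portal veins, and N-cadherin (Cdh2), whereas most epithelia rely on E-cadherin.

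Values are FPKM, fragments scaled to gene length and library size, so that levels can be compared between genes. Reads in the listed genes ranged from 13123719 to 20547746 per library. Foxo1, the gene whose FOXO1AAA form was injected, was between 6.69 and 7.87 FPKM in NL and between 5.17 and 6.46 FPKM in c-MYC. It was between 70.1 and 95.6 FPKM in c-MYC/FOXO1AAA. Mouse Myc was lower in the tumours than in NL (4.17 to 22.2 FPKM in NL, 0.561 to 1.05 FPKM in c-MYC), so it does not report on the injected c-MYC. The library sizes used by the authors were 0.649 to 0.684 of the reads in NL, 1.26 to 1.29 in c-MYC and 1.45 to 1.502 in c-MYC/FOXO1AAA, which raises NL values relative to tumour values. With each library brought to the same FPKM total instead, the median log2 fold change of all tested genes moved from 0.083 to 1.011 for c-MYC versus NL, from 0.026 to 0.197 for c-MYC/FOXO1AAA versus c-MYC, then from 0.213 to 1.311 for c-MYC/FOXO1AAA versus NL.

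Markers of liver cell types moved with the groups. The summed FPKM of 4 hepatocyte markers (Alb, Ttr, Apoa1 and Apob) lay between 72207 and 80055 in NL, between 3069 and 4951 in c-MYC and between 799 and 1454 in c-MYC/FOXO1AAA. Sums over 5 pericentral genes went from 8311 to 10758 in NL to 94.8 to 131 in c-MYC and 121 to 162 in c-MYC/FOXO1AAA, and sums over 5 periportal genes from 1167 to 1483 to 65.4 to 105 and 27.0 to 40.6. Without Cyp2e1, the other 4 pericentral genes summed to 1594 to 2038, 91.9 to 103.3 and 70.1 to 76.3, lowest with FOXO1AAA. That sum hides opposite courses in c-MYC/FOXO1AAA versus c-MYC. Of the 5 genes, 2 were called higher (Cyp2e1 and Cyp1a2), 0 lower and 3 were not called. Mean Glul went from 47.6 to 34.8 FPKM and mean Oat from 47.4 to 31.1, neither called, while mean Cyp1a2 went from 2.12 to 7.25 and mean Slc1a2 from 0.0913 to 0.166. Stellate cell and fibroblast markers (7 genes) summed to 100.2 to 126 in NL, 8.85 to 29.9 in c-MYC and 301 to 405 in c-MYC/FOXO1AAA, and its members moved in both directions. Dcn (62.0 to 83.1, 1.76 to 7.99 and 178 to 312 FPKM) and Des (1.80 to 2.87, 0.512 to 1.14 and 57.4 to 69.3) were highest with FOXO1AAA, whereas Lrat (3.41 to 4.40, 0.0321 to 0.144 and 0.166 to 0.454) and Colec11 (23.0 to 27.0, 1.84 to 6.05 and 1.85 to 3.17) were highest in NL. Cholangiocyte markers (7 of 8 in the table) summed to 20.7 to 28.1, 18.1 to 32.6 and 39.5 to 50.1, with no read of Sctr, a defining marker, in any NL library. That sum also hides opposite courses, since Epcam (0.630 to 1.97 FPKM in NL, 12.6 to 16.5 in c-MYC) and Krt7 (0.210 to 0.803, 2.12 to 14.2) were called higher in c-MYC and Spp1 (15.5 to 23.9, 0.934 to 2.17) lower. Endothelial markers (7) summed to 42.0 to 47.2, 13.1 to 23.3 and 31.8 to 46.5, macrophage markers (7) to 197 to 346, 95.9 to 138 and 47.0 to 80.0, and lymphocyte markers (2 of 4) to 1.32 to 2.13, 2.002 to 2.19 and 8.29 to 12.5. Without Cdh5, itself a junction gene, the other 6 endothelial markers summed to 38.2 to 42.6, 9.88 to 17.2 and 10.7 to 13.7. Most of the macrophage sum in NL was Clec4f (148.6 to 262.5 FPKM in NL, 1.42 to 7.36 in c-MYC and 12.8 to 25.4 with FOXO1AAA). Cd68 (4.58 to 9.15, 32.2 to 37.9 and 18.8 to 31.0) was called higher than NL in both tumour groups. It was the 1 macrophage marker called higher, against 3 called lower in c-MYC and 4 with FOXO1AAA. Of the lymphocyte pair, Cd79a was at 6.98 to 11.9 FPKM with FOXO1AAA and at most 0.889 elsewhere, while Ptprc was at 1.78 to 1.99 FPKM in c-MYC and 0.604 to 1.32 with FOXO1AAA. In bulk tissue, fewer cells of a type and less RNA per cell cannot be told apart. The part of these cell types in the values below was not tested.

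Sequences before the start of 8 of the 10 genes were in the RefSeq promoter table (build GRCm38.p6, 13 windows of 250 bases), all but those of Cdh1 and Cdh2. Stretches of Cldn3 and Cldn6 are printed because these genes moved furthest, in opposite directions, in c-MYC tumours, and that of Ocln because its means had the order of the Cldn6 means. They run 5′ to 3′ on the strand of the gene and end at the annotated gene start, at chr5:134985964-134986213 (plus strand) for Cldn3, chr17:23679115-23679248 (plus strand) for Cldn6 and chr13:100552719-100552968 (minus strand) for Ocln.
Cldn3: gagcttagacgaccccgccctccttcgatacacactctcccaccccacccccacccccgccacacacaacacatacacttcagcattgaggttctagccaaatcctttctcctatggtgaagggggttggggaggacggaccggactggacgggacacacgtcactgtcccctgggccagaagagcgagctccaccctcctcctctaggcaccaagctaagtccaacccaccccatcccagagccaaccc
Cldn6: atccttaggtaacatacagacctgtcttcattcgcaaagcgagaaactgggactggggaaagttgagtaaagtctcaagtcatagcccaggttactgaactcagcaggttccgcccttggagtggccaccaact
Ocln: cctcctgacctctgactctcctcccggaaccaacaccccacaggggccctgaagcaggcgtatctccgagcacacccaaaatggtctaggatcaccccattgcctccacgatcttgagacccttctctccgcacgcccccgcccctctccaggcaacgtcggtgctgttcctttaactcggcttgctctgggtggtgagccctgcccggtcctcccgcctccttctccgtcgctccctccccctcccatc

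The G and C content was 60.8% for Cldn3 (9 CG steps in 250 bases), 49.3% for Cldn6 (3 in 134) and 64% for Ocln (14 in 250). The 13 windows were searched on both strands for CACGTG (the E-box that MYC and MAX recognise), for CAGGTG, read as CACCTG on the other strand (the E-box that SNAI and ZEB factors recognise), and for GTAAACA, read as TGTTTAC (the core recognised by FOXO and other forkhead factors). No window held CACGTG or GTAAACA, which occur in 6.02% and 3.17% of the 32851 promoter windows of the table. CAGGTG occurred in 1 window each of Cldn6, Cldn14 and Ocln, against 17.2% of all windows. The 4 matches are shown with 12 bases on each side and the match in capitals, at chr17:23679260-23679289 (plus strand), chr16:93929831-93929860 (minus strand), chr13:100552694-100552723 and chr13:100552549-100552578 (both minus strand).
Cldn6: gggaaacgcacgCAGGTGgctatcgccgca
Cldn14: ggggccaaccatCAGGTGgacggctcgggg
Ocln upstream match: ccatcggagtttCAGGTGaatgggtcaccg
Ocln downstream match: ctaggggctcggCAGGTGggtcccagcgca

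By the GENCODE M21 annotation each CAGGTG match lies inside its gene, past the outermost start. Only the bases shown before the upstream Ocln match reach across that start. A match is a description of letters and shows no binding.

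Each gene was compared between groups with limma, testing for a change above 1.5-fold, and was called at a Benjamini-Hochberg adjusted p under 0.05 over 14017 genes. In c-MYC versus NL, 2 members were called higher (Cldn6 and Cdh1), 5 lower (Cldn2, Cldn3, Cldn12, Cldn14 and Cdh2) and 3 were not called, where 24.5% of all tested genes were called higher and 23.6% lower. In c-MYC/FOXO1AAA versus c-MYC, 1 was called higher (Cldn3) and 6 lower (Cldn1, Cldn6, Cldn14, Ocln, Cdh1 and Cdh2), against 15.9% of all genes higher and 12.7% lower. In c-MYC/FOXO1AAA versus NL, 1 was called higher (Tjp1) and 8 lower, with Cldn6 not called, against 31.2% higher and 26.6% lower. The groups did not overlap for 9 of 10 members in each of the 3 comparisons, where this held for 73.9%, 63.4% and 80.1% of all tested genes. The median log2 fold change of the members was -0.78, -2.09 and -2.18, beside 0.08, 0.03 and 0.21 over all tested genes. The comparisons share groups and are not independent. With each library at the same FPKM total the splits were 4 higher and 2 lower, 2 higher and 6 lower, and 1 higher and 4 lower, where all genes split into 7061 higher and 1895 lower, 2594 and 1482, and 8129 and 2099. The calls that changed with this scaling are given with each gene.

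**Figure D1:**
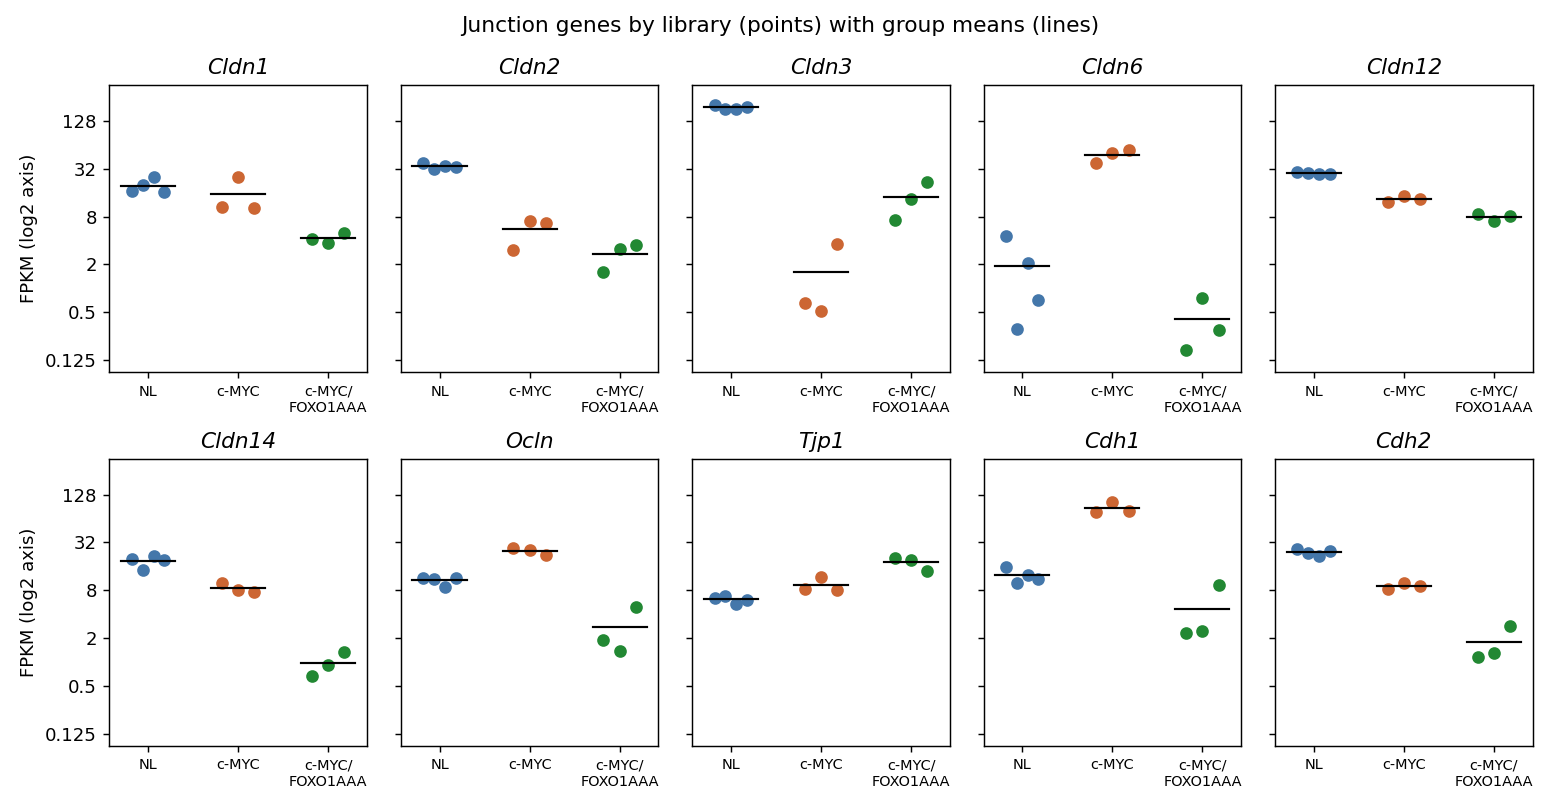
FPKM on a log2 axis for each of the 10 members, with points for libraries and lines for group means. Cldn6, Ocln and Cdh1 are highest in all 3 c-MYC libraries, Cldn3 is lowest there, and Tjp1 is highest in all 3 c-MYC/FOXO1AAA libraries.

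Cldn3, the most abundant member in NL, was the member with the largest decrease in c-MYC tumours, and it was higher again with FOXO1AAA. It encodes a sealing claudin of tight junctions (chromosome 5, 134986214 to 134987472, plus strand, a gene of 1 exon). The 4 NL libraries had 202, 181, 180.0 and 193 FPKM. The 3 c-MYC libraries had 0.657, 0.516 and 3.64 FPKM, from 13, 10 and 82 reads. The 3 c-MYC/FOXO1AAA libraries had 7.15, 13.1 and 21.6 FPKM. Every c-MYC library lay below every c-MYC/FOXO1AAA library, which in turn lay below every NL library. In c-MYC versus NL its log2 fold change came to -7.46 (SE 0.59, limma adjusted p 2.69e-06), a 118-fold lower mean. With FOXO1AAA it was 3.56 versus c-MYC (SE 0.64, adjusted p 0.00244), an 8.69-fold higher mean, and -3.9 versus NL (SE 0.59, adjusted p 0.000332). The c-MYC mean rests on replicate 3, without which these folds were 322.5 and 23.8. Each of the 3 calls held in all 22 alternative settings.

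Cldn6 went the other way, rising in c-MYC tumours and falling from there with FOXO1AAA. It is a claudin of embryonic epithelia that is little expressed in adult tissue (chromosome 17, 23679249 to 23682446, plus strand). It had 4.51, 0.305, 2.09 and 0.706 FPKM in NL (70, 3, 28 and 8 reads). It had 37.5, 49.7 and 54.2 FPKM in c-MYC, from 983 to 1424 reads. In c-MYC/FOXO1AAA it had 0.168, 0.761 and 0.296 FPKM, from 3, 29 and 6 reads. The c-MYC libraries stood clear of the other 7, while NL and c-MYC/FOXO1AAA overlapped. On the log2 scale it was 5.29 higher in c-MYC versus NL (SE 0.82, limma adjusted p 0.000397) and its fold change was -7.12 in c-MYC/FOXO1AAA versus c-MYC (SE 0.88, adjusted p 0.000123), corresponding to means 24.8-fold higher and 115-fold lower. The first was 45.7-fold without NL replicate 1, and the second 203-fold without c-MYC/FOXO1AAA replicate 2. Both calls held in all 22 settings. In c-MYC/FOXO1AAA versus NL it was -1.83 (SE 0.82, adjusted p 0.14), which was called without NL replicate 2 (-2.48, adjusted p 0.0221) and under quantile normalization (-2.68, adjusted p 0.0201).

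The order of NL libraries for Cldn6 (1, 3, 4, 2 from high to low) was also that of Afp and H19, genes of fetal liver that were named after their values were seen. The member Cdh1 and the tight junction partner Ybx3 had this order too, and how many genes share it was not counted. Afp had 169, 11.1, 76.9 and 36.6 FPKM in NL replicates 1 to 4, and H19 had 1403, 88.4, 669 and 329. In c-MYC, Afp had 1635 to 2781 FPKM and H19 had 16621 to 20337. With FOXO1AAA, Afp had 5.56 to 112 FPKM and H19 had 6651 to 9096, so that Cldn6, Afp and H19 each lay below their c-MYC values there. For H19 this fall was not called (log2 fold change -1.15, limma adjusted p 0.613). Unlike Cldn6 and Afp, H19 was called higher than NL with FOXO1AAA (4.31, limma adjusted p 0.000565).

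Cldn2, which forms a channel for sodium and water, was lower in both tumour groups (chromosome X, 139800828 to 139811386, plus strand). NL had 37.4, 31.8, 34.8 and 33.6 FPKM, c-MYC had 3.03, 7.07 and 6.57, and c-MYC/FOXO1AAA had 1.63, 3.13 and 3.46. All 6 tumour libraries were far below NL, and the tumour groups overlapped. Versus NL, the log2 fold change in c-MYC was -2.72 (SE 0.32, limma adjusted p 0.000106) and in c-MYC/FOXO1AAA -3.72 (SE 0.32, adjusted p 4.31e-06). Between tumour groups it was -1.0 (SE 0.34, adjusted p 0.329), which became -1.39 and was called (adjusted p 0.0318) without c-MYC replicate 1, the lowest of its group.

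Cldn14 and Cldn12 had their highest levels in NL and their lowest in c-MYC/FOXO1AAA. Cldn14, a claudin best known from the ear and the kidney (chromosome 16, 93919031 to 94008837, minus strand), had 19.5, 14.4, 21.4 and 19.1 FPKM in NL. It had 9.84, 8.10 and 7.52 FPKM in c-MYC, and 0.666, 0.908 and 1.34 FPKM in c-MYC/FOXO1AAA. No 2 groups overlapped. The fall from c-MYC to c-MYC/FOXO1AAA was -3.18 on the log2 scale (SE 0.25, limma adjusted p 6.78e-06), an 8.73-fold lower mean. The first step, from NL to c-MYC, was -1.12 (SE 0.23, adjusted p 0.0415) and lost its call in 9 of 22 settings. These were the same FPKM total (-0.20, adjusted p 1.0), the 2-fold threshold, the replicate block, and leaving out NL replicate 1, 3 or 4, c-MYC replicate 2 or 3, or c-MYC/FOXO1AAA replicate 2 (adjusted p 0.0507 to 0.119 without 1 library). Against NL, c-MYC/FOXO1AAA was lower by a log2 change of -4.3 (SE 0.23, adjusted p 8.21e-08).

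Cldn12, which lacks the tail motif by which most claudins bind ZO proteins (chromosome 5, 5489537 to 5514958, minus strand), had close values within each group. It had 28.9, 28.0, 27.4 and 27.3 FPKM in NL, 12.03, 14.3 and 13.3 in c-MYC, and 8.54, 6.96 and 8.16 in c-MYC/FOXO1AAA. The 3 groups were apart. Log2 fold changes were -1.08 in c-MYC (SE 0.1, limma adjusted p 0.000926) and -1.83 in c-MYC/FOXO1AAA (SE 0.1, adjusted p 6.76e-07) versus NL, and -0.74 between tumour groups (SE 0.11, adjusted p 0.241). Both calls against NL were lost with the same FPKM total, at -0.16 (adjusted p 1.0) and -0.73 (adjusted p 0.152). They held with equal library medians and with quantile normalization.

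Cldn1, a broadly expressed sealing claudin (chromosome 16, 26356642 to 26371841, minus strand), was low with FOXO1AAA only among the groups compared. NL had 16.9, 19.96, 24.9 and 16.3 FPKM. The c-MYC libraries had 10.6, 25.1 and 10.1 FPKM, so that replicate 2 was above all NL libraries and the other two were below them. The c-MYC/FOXO1AAA libraries had 4.21, 3.70 and 4.92 FPKM and overlapped neither group. The log2 fold change for c-MYC versus NL was -0.47 (SE 0.29, limma adjusted p 0.906), and its sign turned with the same FPKM total (0.46, adjusted p 0.801). With FOXO1AAA it was -1.71 versus c-MYC (SE 0.31, adjusted p 0.0105) and -2.18 versus NL (SE 0.29, adjusted p 0.000359). The last was -1.08 (adjusted p 0.0898) with the same FPKM total.

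Taking the 6 claudins as 1 pool, both its size and its make-up differed between groups. In NL their summed FPKM was 291 ± 14.0 (SD, n = 4), in c-MYC it was 91.3 ± 15.98 (SD, n = 3), and with FOXO1AAA it was 30.2 ± 8.80 (SD, n = 3). Shares within the pool do not depend on the scaling between libraries. Cldn3 made up 64.9% ± 2.02 (SD, n = 4) of the pool in NL, 1.73% ± 1.82 (n = 3) in c-MYC and 44.0% ± 11.3 (n = 3) in c-MYC/FOXO1AAA. Cldn6 made up 1.46%, 0.111%, 0.718% and 0.243% in the NL libraries. It made up 51.0%, 47.4% and 56.9% in c-MYC, and 0.750%, 2.67% and 0.746% in c-MYC/FOXO1AAA. Among the 6, the leading claudin was therefore Cldn3 in every NL library and Cldn6 in every c-MYC library. In c-MYC/FOXO1AAA it was Cldn12 in replicate 1 (38.2%, against 31.98% for Cldn3) and Cldn3 in replicates 2 and 3 (45.9% and 54.3%). Outside the 6, Cldn5 was above both in replicate 1, with 19.2 FPKM against 8.54 for Cldn12 and 7.15 for Cldn3.

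The Cldn6 share differed by 51.1 percentage points between c-MYC and NL (exact permutation test, 2-sided, p 0.0571, adjusted over 3 comparisons 0.15). The difference was -50.4 points between c-MYC/FOXO1AAA and c-MYC (exact permutation p 0.1, adjusted 0.15). These are the smallest p-values this test, whose 2-sided p doubles the smaller tail, can give with 4 against 3 and 3 against 3 libraries. It therefore cannot reach 0.05 here. Between c-MYC/FOXO1AAA and NL the difference was 0.755 points (exact permutation p 0.343, adjusted 0.343). With all 12 claudins of the table as the pool, the first 2 differences were 36.8 and -36.5 points.

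**Figure D2:**
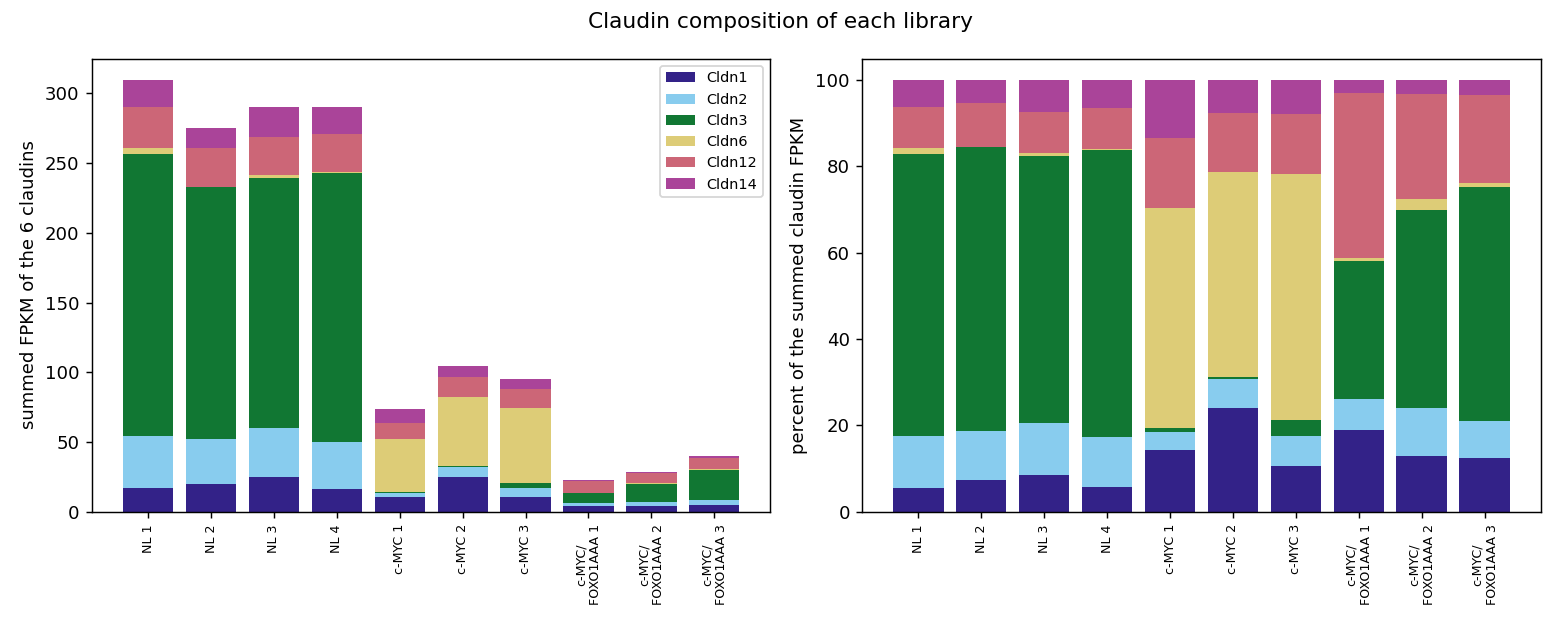
Summed FPKM of the 6 claudins (left, linear axis from 0) and the percent of that sum held by each claudin (right), 1 bar per library. The NL bars are the tallest (275 to 310 FPKM) and mostly Cldn3, the c-MYC bars are 47.4% to 56.9% Cldn6, and the c-MYC/FOXO1AAA bars are the lowest (22.4 to 39.7 FPKM).

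Among the claudins outside the 10, 6 of 18 listed were in the table and 4 were tested. Cldn7, a claudin of many simple epithelia, had 0.850 to 1.81 FPKM in NL, 17.1, 27.6 and 44.1 in c-MYC, and 1.71, 4.11 and 3.17 in c-MYC/FOXO1AAA. Its log2 fold change was positive in c-MYC versus NL (4.51, SE 0.4, limma adjusted p 6.37e-06) and negative when FOXO1AAA was added to c-MYC (-3.29, SE 0.42, adjusted p 0.00028), the 2 directions of Cldn6. Cldn9, named after its values were seen because it ends 137 bases from the end of Cldn6 on the opposite strand, held no read in any NL or c-MYC library. With FOXO1AAA it had 1.68, 2.03 and 1.53 FPKM (57, 84 and 41 reads), at least 15.6-fold higher than c-MYC and at least 8.20-fold higher than NL at a floor of 3 reads per library. Cldn5, the claudin of blood vessel walls, had 19.2, 6.28 and 16.5 FPKM in c-MYC/FOXO1AAA and 3.55, 1.32 and 4.74 in c-MYC (log2 fold change 2.16, SE 0.49, limma adjusted p 0.0192). That call was lost without c-MYC replicate 2 and without c-MYC/FOXO1AAA replicate 1 or 3.

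Ocln, which encodes the 4-pass strand protein occludin (chromosome 13, 100496507 to 100552718, minus strand), was lowest with FOXO1AAA. It had 11.3, 11.1, 8.88 and 11.3 FPKM in NL. It had 26.9, 25.4 and 21.9 in c-MYC, and 1.87, 1.39 and 4.96 in c-MYC/FOXO1AAA. The 3 groups did not overlap, and c-MYC/FOXO1AAA replicate 3 was the highest of its group. The log2 fold change from c-MYC to c-MYC/FOXO1AAA was -3.39 (SE 0.37, limma adjusted p 9.53e-05), a 9.03-fold lower mean (15.2-fold without c-MYC/FOXO1AAA replicate 3), and this call held in all 22 settings. In c-MYC versus NL it was 1.22 (SE 0.35, adjusted p 0.098), a mean 2.32-fold higher that was not called. It was called in 4 of 22 settings, namely without c-MYC/FOXO1AAA replicate 3 (adjusted p 0.00243), when only the 2 groups entered the fit (adjusted p 0.00144), with no fold threshold (adjusted p 0.00898) and with the same FPKM total (2.14, adjusted p 0.000874). Against NL, c-MYC/FOXO1AAA was lower by -2.18 (SE 0.35, adjusted p 0.00117), and by -1.08 (adjusted p 0.11) with the same FPKM total.

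Tjp1 was the member that rose with FOXO1AAA relative to NL. It encodes ZO-1, the scaffold under the strands (chromosome 7, 65296165 to 65527781, minus strand). NL had 6.36, 6.70, 5.41 and 6.12 FPKM, c-MYC had 8.36, 11.7 and 8.04, and c-MYC/FOXO1AAA had 20.5, 19.5 and 14.0. The 3 groups were apart and in that order. The log2 fold change against NL was 1.53 (SE 0.17, limma adjusted p 0.000297), a 2.93-fold higher mean, in all 22 settings. The steps from NL to c-MYC (0.59, SE 0.17, adjusted p 0.72) and from c-MYC to c-MYC/FOXO1AAA (0.94, SE 0.18, adjusted p 0.122) were not called. The second was called without c-MYC replicate 2 (1.11, adjusted p 0.0292) and without c-MYC/FOXO1AAA replicate 3 (1.11, adjusted p 0.0265). Both were called with the same FPKM total, at 1.52 and 1.11 (adjusted p 0.000586 and 0.0457).

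The cadherins followed separate courses from NL to c-MYC and fell together with FOXO1AAA. Cdh1, encoding E-cadherin (chromosome 8, 106603351 to 106670246, plus strand), had 15.7, 9.75, 12.6 and 11.1 FPKM in NL. The c-MYC libraries had 77.8, 104 and 79.9 FPKM, and those of c-MYC/FOXO1AAA had 2.30, 2.44 and 9.38. All c-MYC libraries lay above NL, and all c-MYC/FOXO1AAA libraries lay below it, replicate 3 by the least. Its log2 fold change in c-MYC versus NL was 2.84 (SE 0.42, limma adjusted p 0.000577), a 7.12-fold higher mean. It was -4.53 in c-MYC/FOXO1AAA versus c-MYC (SE 0.45, adjusted p 3.62e-05), an 18.5-fold lower mean (36.8-fold without c-MYC/FOXO1AAA replicate 3), and both calls held in all 22 settings. For c-MYC/FOXO1AAA versus NL it was -1.69 (SE 0.42, adjusted p 0.0241), which was not called without NL replicate 1 (adjusted p 0.0546), without c-MYC/FOXO1AAA replicate 1 (adjusted p 0.109) or 2 (adjusted p 0.0998), or with the same FPKM total (-0.59, adjusted p 0.599).

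Cdh2, encoding N-cadherin (chromosome 18, 16588877 to 16809246, minus strand), had 26.6, 23.7, 21.5 and 24.9 FPKM in NL. It had 8.39, 9.87 and 9.03 FPKM in c-MYC and 1.17, 1.29 and 2.86 in c-MYC/FOXO1AAA. The groups were apart, in falling order. Log2 fold changes were -2.48 from c-MYC to c-MYC/FOXO1AAA (SE 0.28, limma adjusted p 0.000164) and -3.89 from NL to c-MYC/FOXO1AAA (SE 0.26, adjusted p 5.14e-07), each called in all 22 settings. From NL to c-MYC it was -1.41 (SE 0.26, adjusted p 0.0113), and -0.48 (adjusted p 0.8) with the same FPKM total.

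The ratio of Cdh1 to Cdh2 does not depend on the scaling between libraries. On the log2 scale it was -0.76, -1.28, -0.78 and -1.17 in NL, 3.21, 3.40 and 3.15 in c-MYC, and 0.97, 0.92 and 1.72 in c-MYC/FOXO1AAA. N-cadherin RNA was thus the more abundant in each NL library and E-cadherin RNA in each tumour library, with c-MYC/FOXO1AAA between the other groups and overlapping neither. The mean difference was 4.25 for c-MYC minus NL (2-sided exact permutation p 0.0571, adjusted over 3 comparisons 0.0857). It was 2.20 for c-MYC/FOXO1AAA minus NL (exact permutation p 0.0571, adjusted 0.0857) and -2.05 for c-MYC/FOXO1AAA minus c-MYC (exact permutation p 0.1, adjusted 0.1). Again these are the smallest p-values this test can give with these group sizes.

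**Figure D3:**
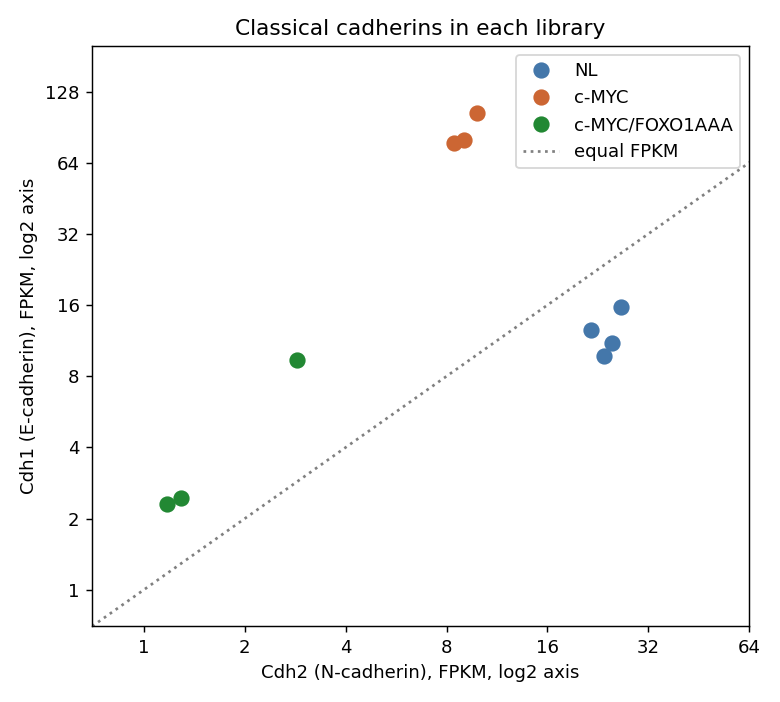
Cdh1 against Cdh2 in FPKM, both on log2 axes, 1 point per library and a dotted line where they are equal. NL libraries lie below the line and all tumour libraries above it, with both cadherins lowest in c-MYC/FOXO1AAA.

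**Figure D4:**
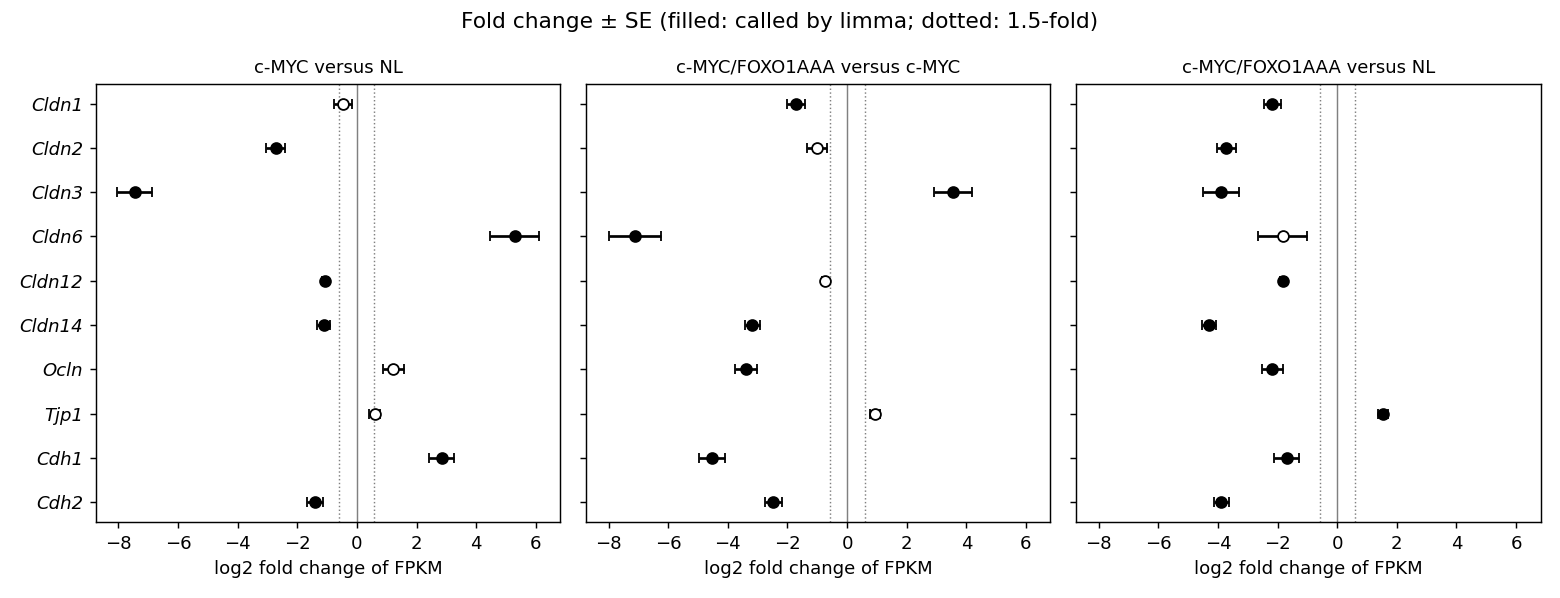
Log2 fold change of FPKM with its standard error for the 10 members in 3 comparisons. Filled points were called by limma, and dotted lines mark the 1.5-fold threshold. Tjp1 is the only filled point above 0 among members in c-MYC/FOXO1AAA versus NL.

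The order of the 10 levels also changed. In NL, Cldn3 (189 FPKM), Cldn2 (34.4) and Cldn12 (27.9) led with ranges apart, Cdh2, Cldn1, Cldn14, Cdh1 and Ocln followed in overlapping neighbours, and Tjp1 (6.15) and Cldn6 (1.90) came last. In c-MYC the order began with Cdh1 (87.4 FPKM) and Cldn6 (47.2), each apart from the next, and ended with Cldn2 (5.55) and Cldn3 (1.60), which overlapped. In c-MYC/FOXO1AAA it began with Tjp1 (17.99 FPKM) and Cldn3 (13.9) and ended with Cldn14 (0.972) and Cldn6 (0.408), and the ranges of all neighbours overlapped.

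Of the other junction genes, 97 were listed, 79 were in the table and 67 were tested. Beyond the junction classes, the 67 took in 9 epithelial regulators and keratins and 10 mesenchymal genes and factors of epithelial to mesenchymal transition. Counts and medians here are for the whole list. Between the tumour groups, the mesenchymal class gave 9 higher calls and 0 lower, and the epithelial class 1 and 7. For FOXO1AAA tumours against NL these were 8 and 1, and 1 and 4. In c-MYC versus NL, 11 of the 67 were higher and 12 lower, smaller shares than the 24.5% and 23.6% of all tested genes. After scaling to equal FPKM totals, 28 and 7 were called, beside 7061 and 1895 of all 14017 genes. In c-MYC/FOXO1AAA versus c-MYC, 21 were called higher and 27 called lower, where 15.9% and 12.7% of all genes were. In c-MYC/FOXO1AAA versus NL, 19 were higher and 27 lower, where 31.2% and 26.6% of all genes were. After scaling to equal FPKM totals, 35 and 19 were called, beside 8129 and 2099 of all 14017 genes. The median log2 fold changes of the 67 were -0.11, -0.58 and 0.04. For the classes below, percentages of all genes are on the deposited scale. Class counts after the other scaling are to be set against its own splits of all genes instead. Where a class below is given 0 genes in a direction, an unadjusted limma p under 0.05 gave 0 as well, apart from 1 desmosome gene higher and 1 epithelial regulator or keratin lower in c-MYC versus NL. No other tool was run.

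Among 20 tested tight junction partners, 5 were higher and 3 lower in c-MYC versus NL, 2 higher and 10 lower in c-MYC/FOXO1AAA versus c-MYC, then 3 higher and 12 lower in c-MYC/FOXO1AAA versus NL (7 and 8 with the same FPKM total). All tested genes had 24.5% higher and 23.6% lower in the first comparison, about the share of these partners that was higher, then 15.9% and 12.7%, and 31.2% and 26.6%. Cgn, encoding the strand-bound adaptor cingulin, had the course of Ocln and Cdh1, with 4.82 to 6.21 FPKM in NL, 18.1 to 26.1 in c-MYC and 0.571 to 1.99 in c-MYC/FOXO1AAA. It fell by 4.42 on the log2 scale from c-MYC to c-MYC/FOXO1AAA (SE 0.37, limma adjusted p 9.99e-06). Its relative Cgnl1 (paracingulin) was -3.97 in c-MYC/FOXO1AAA versus NL (SE 0.28, adjusted p 8.24e-07). Ildr2, related to the tricellular junction protein Lsr, had the course of Cldn3, with 32.1 to 38.1 FPKM in NL, 0.181 to 0.799 in c-MYC and 4.23 to 7.37 in c-MYC/FOXO1AAA (-6.45 in c-MYC versus NL, SE 0.4, adjusted p 4.37e-07). Jam3, an adhesion molecule also made by vessel and stromal cells, was higher with FOXO1AAA by 5.14 versus c-MYC (SE 0.37, adjusted p 2.49e-06) and 4.03 versus NL (SE 0.35, adjusted p 3.34e-06) on the log2 scale. Ybx3, a ZO-1 binding RNA and DNA binding protein, was higher in c-MYC than in NL (log2 fold change 3.08, SE 0.22, adjusted p 2.5e-06).

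The adherens junction class had 9 tested genes, with 0 called higher and 1, 2 and 3 called lower in the 3 comparisons, where 23.6%, 12.7% and 26.6% of all genes were lower. With the same FPKM total the calls were 4 higher and 1 lower in c-MYC versus NL, and 5 and 2 in c-MYC/FOXO1AAA versus NL. The cadherin-binding catenins Ctnna1, Ctnnb1 and Ctnnd1 and plakoglobin (Jup) were not called in any of them on the deposited scale, with log2 fold changes between -0.75 and 0.8. Called genes included Nectin3 in c-MYC versus NL (-1.97, SE 0.17, limma adjusted p 1.98e-05) and Nectin1 with FOXO1AAA (-3.1 versus c-MYC, SE 0.25, adjusted p 1.11e-05, and -3.46 versus NL, SE 0.24, adjusted p 7.06e-07). Nectins are immunoglobulin-like adhesion proteins of that junction.

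Of 7 tested desmosome genes, which anchor keratin filaments between cells, 1 was lower and 0 were higher in c-MYC versus NL, 1 was higher and 5 were lower in c-MYC/FOXO1AAA versus c-MYC, then 0 and 5 in c-MYC/FOXO1AAA versus NL. The first split was 3 higher and 1 lower with the same FPKM total. Lower calls over all genes were 23.6%, 12.7% and 26.6%. Dsc2 (desmocollin) went from 14.8 to 22.1 FPKM in NL to 0.0867 to 0.132 in c-MYC (log2 fold change -7.29, SE 0.26, limma adjusted p 5.4e-09, from 5 to 9 reads in c-MYC) and 1.66 to 3.08 with FOXO1AAA. Dsg2 (desmoglein) was -3.11 versus c-MYC (SE 0.31, adjusted p 4.64e-05) and -3.74 versus NL (SE 0.29, adjusted p 1.77e-06) in c-MYC/FOXO1AAA. Gap junctions form channels between cells, and of their 5 tested genes none was higher and 3 were lower in c-MYC versus NL (1 and 1 with the same FPKM total), 3 higher and 2 lower in c-MYC/FOXO1AAA versus c-MYC, then 2 and 2 in c-MYC/FOXO1AAA versus NL, against higher calls of 24.5%, 15.9% and 31.2% over all genes. The hepatocyte connexins Gjb1 and Gjb2 were lower in c-MYC than in NL (-1.95, SE 0.27, adjusted p 0.00072, and -2.39, SE 0.33, adjusted p 0.000493), and Gjb1 was lower again with FOXO1AAA (-3.66 versus c-MYC, SE 0.29, adjusted p 7.4e-06, and -5.61 versus NL, SE 0.27, adjusted p 4.01e-08). Gjc1, a connexin of muscle and vessel cells, was 4.63 higher versus c-MYC (SE 0.68, adjusted p 0.000483) and 5.93 higher versus NL (SE 0.64, adjusted p 1.54e-05).

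The other cadherins had 3 tested genes, with 0 higher and 1 lower in c-MYC versus NL (1 and 0 with the same FPKM total) and all 3 higher in both c-MYC/FOXO1AAA comparisons, where 15.9% and 31.2% of all genes were higher. Cdh5, the cadherin of vessel walls, was higher with FOXO1AAA by 2.49 versus c-MYC (SE 0.27, limma adjusted p 0.000143) and 2.45 versus NL (SE 0.26, adjusted p 3.81e-05). Of 9 tested epithelial regulators and keratins, 4 were higher and 0 lower in c-MYC versus NL, 1 higher and 7 lower in c-MYC/FOXO1AAA versus c-MYC, then 1 higher and 4 lower in c-MYC/FOXO1AAA versus NL (5 and 2 with the same FPKM total). Over all genes 24.5% were higher in the first, 12.7% lower in the second and 26.6% lower in the third. Epcam, an epithelial surface protein, was higher in c-MYC than in NL (3.71, SE 0.37, adjusted p 1.79e-05). Esrp2, a splicing factor of epithelial cells, was lower with FOXO1AAA (-4.17 versus c-MYC, SE 0.43, adjusted p 4.49e-05, and -3.83 versus NL, SE 0.4, adjusted p 2.03e-05).

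Of 10 tested transcription factors of epithelial to mesenchymal transition and mesenchymal genes, none was higher and 3 were lower in c-MYC versus NL (3 and 2 with the same FPKM total), 9 higher and 0 lower in c-MYC/FOXO1AAA versus c-MYC, then 8 higher and 1 lower in c-MYC/FOXO1AAA versus NL. The shares of all tested genes were 23.6% lower in the first, then 15.9% and 31.2% higher. Twist1, a transcription factor of mesenchyme, had at most 1 read in NL and at most 3 in c-MYC, and 9.17, 7.97 and 14.3 FPKM with FOXO1AAA, at least 105-fold higher than c-MYC and at least 55.4-fold higher than NL at 3 reads per library (limma adjusted p 8.72e-07 and 1e-07). Fn1 (fibronectin), which hepatocytes secrete in quantity, was lower in both tumour groups, at -2.26 in c-MYC versus NL (SE 0.21, adjusted p 2.31e-05) and -3.01 in c-MYC/FOXO1AAA versus NL (SE 0.21, adjusted p 8.66e-07). Of the 7 stellate cell and fibroblast markers, 4 were called higher with FOXO1AAA versus c-MYC, and 4 higher and 2 lower (Lrat and Colec11) versus NL. Their part in these counts was not tested.

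**Figure D5:**
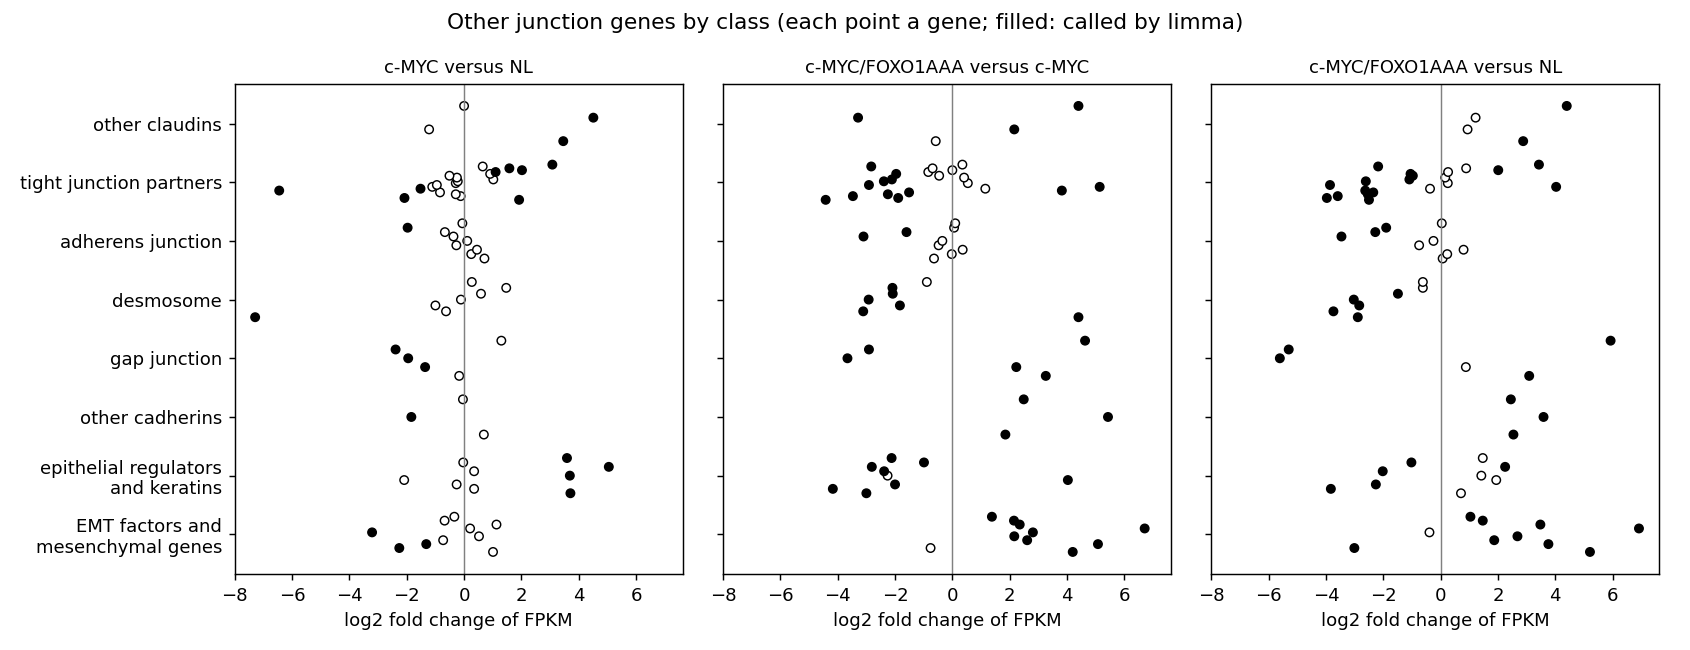
Log2 fold change of FPKM for the 67 tested genes of the list of other junction genes by class, 1 point per gene, filled where called by limma. In c-MYC/FOXO1AAA versus c-MYC the tight junction partners, desmosome genes and epithelial regulators lie mostly below 0, and the mesenchymal class mostly above it.

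For each member, the 2 genes with the closest course over the 10 libraries (Pearson r of log2 FPKM among 8123 genes whose mean reached 10 FPKM in 1 group or more) were named. All libraries come from 3 groups with different means, so r largely follows those means. They were Hsp90b1 (0.976) and Kdm1b (0.973) for Cldn1, Masp1 (0.992) and Hsd17b13 (0.991) for Cldn2, and Kctd2 (0.993) and Oaz1 (0.992) for Cldn3. Cldn6 was closest to Sfmbt2 (0.993) and Foxj1 (0.983), Cldn12 to C1ra (0.997) and Agfg2 (0.996), and Cldn14 to 5033403H07Rik and Cpn1 (both 0.996). For Ocln they were Klb (0.993) and Myrf (0.991), for Tjp1 Ankrd28 (0.991) and Zmynd11 (0.986), for Cdh1 Acot1 (0.993) and Myo7a (0.992), and for Cdh2 Kng1 and F7 (both 0.998).

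Within c-MYC/FOXO1AAA, replicate 3 had the highest value of its group for 7 of the 10 members (Cldn1, Cldn2, Cldn3, Cldn14, Ocln, Cdh1 and Cdh2) and the lowest for Tjp1. Among marker genes it had the highest value of its group for 3 of 4 hepatocyte markers, 4 of 5 periportal and 2 of 5 pericentral ones, and the lowest for 3 pericentral ones. Summed over the 4 hepatocyte markers it had 1411 FPKM, against 1454 in replicate 2 and 799 in replicate 1. The part of hepatocyte RNA in its values was not tested.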

How the data were processed

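RNA-seq was performed on normal liver, c-MYC tumours and c-MYC/FOXO1AAA tumours, and a table of log2 FPKM was deposited by the authors. The authors counted reads by Ensembl gene, converted the identifiers to Entrez, took symbols from org.Mm.eg.db and used edgeR, per the methods of the study. The submitters' processing notes name FastQC 0.11.7 and GRCm38. The aligner, the counting program, the annotation release and any use of strand are not given in the sources used here. The values carry a prior count (2 on average, in proportion to library size) from before the log2, which understates changes of low genes. Whole reads were recovered for 16659 of 16697 genes (99.8%, tolerance 0.002 reads). Of 17069 entries, 372 without a symbol were left out. Read floors (3 reads) cover counting error only.

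Groups came from the titles. Since the deposited unit is log2 and not a count, limma 3.58.1 (R 4.3.3, function treat, 1.5-fold, trend and robust) was fitted to all 10 libraries. It was also run on simulated reads with known changes, set in a small share of genes and in c-MYC/FOXO1AAA only. That run does not cover changes as widespread, or scaling differences as large, as those seen here. Ratios and shares per library were compared by exact permutation tests (scipy 1.17.1). The members, the gene lists and the rule for named genes were chosen with earlier results of these data known. All 10 members were named, and of the other junction genes, per class and comparison, the called gene with the largest change in each direction with a mean of at least 5 FPKM in a group. The rule also took the 2 genes closest to each member. Genes outside it are Foxo1, Myc, the cell type markers, Ctnna1, Ctnnb1, Ctnnd1, Jup and those said to be named after their values were seen. Gene positions are from GENCODE M21 (GRCm38) and promoters from RefSeq (GRCm38.p6). Alternatives were other pseudocounts, filters, scalings, fold thresholds, moderation, samples, a replicate block and leaving out each library. Shares and ratios without the prior count were added after seeing the data.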

Additional observations from a re-analysis of the deposited data

Results flagged for a closer look

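In the 12 sets of 4 NL values examined (the 10 members, the Cdh1 to Cdh2 ratio and the Cldn6 share), 1 value stood apart by Dixon's test at 95%, where chance alone would mark about 1 set in 20. It was Ocln in NL replicate 3, at 3.15 on the log2 FPKM scale (8.88 FPKM, against 11.1 to 11.3 in the other 3 NL libraries). Without NL replicate 3 the log2 fold change of Ocln was 1.13 in c-MYC versus NL and -2.27 in c-MYC/FOXO1AAA versus NL, on the same side of the threshold as with it (limma adjusted p 0.18 and 0.00222).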

How the results depend on the processing

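Of 660 values for single members under the 22 alternatives, 622 kept their direction and their side of the threshold, 22 lost a call, 15 gained one, and Cldn1 in c-MYC versus NL changed sign (0.46 with the same FPKM total, adjusted p 0.801). A 2-fold threshold ended the calls of Cldn12, Cldn14 and Cdh2 in c-MYC versus NL, that of Cdh1 in c-MYC/FOXO1AAA versus NL, and that of Cldn1 between the tumour groups. Dropping the fold threshold added calls of Ocln and Tjp1 in c-MYC versus NL, and of Cldn2, Cldn12 and Tjp1 between the tumour groups. The 7 members called in c-MYC versus NL became 4 with a 2-fold threshold, and the 9 called in c-MYC/FOXO1AAA versus NL became 5 with the same FPKM total. The 23 other junction genes called in c-MYC versus NL became 12 with a mean FPKM of at least 5 (fewer genes tested), 35 with the same FPKM total and 42 with no fold threshold, and the 48 in c-MYC/FOXO1AAA versus c-MYC became 30 with that filter. Calls over all genes moved too. In c-MYC versus NL they went from 3435 higher and 3305 lower to 2192 and 2420 with the 2-fold threshold. They were 7061 and 1895 with the same FPKM total, and 5487 and 4945 with no fold threshold. With that filter they were 2306 and 2210 of 8919 genes, and 989 and 1291 in c-MYC/FOXO1AAA versus c-MYC. In c-MYC/FOXO1AAA versus NL they went from 4371 and 3728 to 8129 and 2099 with the same FPKM total. Without single libraries the members called were 6 to 8, 7 to 8 and 8 to 10 in the 3 comparisons, and the other junction genes 20 to 26, 44 to 48 and 45 to 49. Over all genes 3219 to 3508 were then higher and 3151 to 3338 lower in the first comparison. In the second it was 2044 to 2249 and 1546 to 1852, and in the third 4133 to 4466 and 3547 to 3768.

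Same-numbered libraries of different groups did not deviate together (correlations of -0.04 to 0.027). The numbers thus gave no sign of a pairing, though this cannot exclude one and the labels do not say. The replicate block gave 6, 7 and 9 members and 20, 48 and 44 other junction genes called, and Cldn14 in c-MYC versus NL lost its call (limma adjusted p 0.0852). Over all genes it gave 3252 higher and 3155 lower, 2167 and 1685, and 4205 and 3605. The Cdh1 to Cdh2 ratio and the Cldn6 share kept their direction in every alternative run. With 3 or 4 libraries a group, the exact tests as run cannot reach 0.05, and Cldn6 in NL and c-MYC/FOXO1AAA rests on 3 to 70 reads per library.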
